A study of Mus musculus with 40 samples.

Results

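The comparison described here set bone marrow-derived macrophages (BMDMs) of NDI1 mice against those of wild-type (WT) mice after treatment with LPS plus piericidin A. The 10 libraries of this comparison, 5 NDI1 and 5 WT, were chosen by genotype and treatment labels alone out of 40 libraries in the series. The other 30 libraries came from the same 10 mice and were untreated or had LPS or piericidin A alone. NDI1 mice carried a yeast NDI1 gene behind a lox-stop-lox cassette in the Rosa26 locus, and Vav-iCre switched it on in hematopoietic cells. The WT mice were labelled as VAV-Cre WT, so both genotypes carried the Cre driver, and the strain label was C57/Bl6 for all. The study describes the NDI1 line that was bred to Vav-iCre mice as mixed C57Bl/6J/N. Both sexes were included at an age of 8 to 14 weeks, with WT animals from the same litters, and each library was 1 culture of 1 mouse. The macrophages were grown from bone marrow for 6 days in M-CSF (20 ng per ml) with methyl-pyruvate and uridine in the medium, then given 500 nM piericidin A for 30 min and then 100 ng per ml LPS for 4 h. The question of the comparison is which part of gene expression in activated macrophages under a complex I inhibitor differs when another NADH dehydrogenase is present.

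Most NADH made in mitochondria is oxidised by complex I, a large assembly at the head of the respiratory chain that couples this reaction to the proton gradient behind ATP synthesis. Inhibitors such as piericidin A act at its ubiquinone site. Yeast has in its place a single-protein enzyme, NDI1, which oxidises NADH without building a gradient and tolerates the inhibitor. LPS, a component of the bacterial outer membrane, activates macrophages through the receptor Toll-like receptor 4, and within hours the cells make cytokines, chemokines and interferon beta and lower a set of genes of the resting state.

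All 10 libraries carried the macrophage markers Adgre1, Csf1r, Cd68, Itgam, Fcgr1, Lyz2, Cd14, Mertk and Spi1. Of these 9 markers 1 was called between the genotypes, Spi1, which was higher in NDI1 (0.67, adjusted p = 0.00113). Totals lay between 6950748 and 13552070 counts per library. Markers of neutrophils were higher in 2 libraries, with a summed level of 2394 CPM in WT mouse 496 and 657 CPM in NDI1 mouse 503 against 39.0 to 148 CPM in the other 8 libraries, and 7 of the 8 markers were tested with none called. Stromal markers summed to 86.0 CPM in WT mouse 496 and to 3.35 to 18.1 CPM in the other 9 libraries. Sums were also raised in mice 496 and 503 for markers of B cells (10.1 and 7.83 CPM, against 0.432 to 2.28 in the other 8), eosinophils (20.9 and 5.32 CPM, against 1.11 to 2.16) and mast cells and basophils (5.02 and 2.19 CPM, against 0 to 0.489), and those of dendritic cells were 34.3 CPM in mouse 496 against 6.61 to 17.9 CPM in the other 9, with none of the tested markers among these called. The counts of calls given below were therefore also computed without mice 496 and 503, a choice made after these values were seen. By Xist and Y-linked counts 4 NDI1 and 3 WT mice were female, and a fit with a sex term gave 1540 calls against 1421 without it. The NDI1 transgene itself was not analysed here, so the genotype labels were taken as given. In bulk RNA, fewer cells of a type and less RNA per cell cannot be told apart.

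Values are CPM, the counts of a gene per megacount of its library, scaled by TMM factors, and they are given for WT mice 449, 452, 453, 496 and 520 and then for NDI1 mice 447, 460, 461, 503 and 521, in this order. A gene is called when its adjusted p-value in edgeR's quasi-likelihood test, over 11853 genes, was under 0.05. Log2 fold changes are NDI1 minus WT, and a value given for a gene without a unit is its log2 fold change, with the adjusted p of edgeR beside it. Of the 11853 genes 1421 were called, which is 12%, with 694 higher in NDI1 (5.86%) and 727 lower (6.13%). The falls were larger than the rises, since 296 of the lower genes and 59 of the higher genes changed by at least 1 on the log2 scale. For 312 genes (2.63%) the 5 NDI1 values all lay above the 5 WT values, and for 324 genes (2.73%) all lay below, and 505 genes were both called and without overlap. The genotypes held 22% of the variance between the 10 libraries over all tested genes (exact permutation test over the 252 assignments, p = 0.00794, the smallest that they can give). Over the 500 most variable genes this share was 21.0% (exact permutation test, p = 0.0556). The number of calls depended on single mice. Without WT mouse 520 there were 746 calls, without WT mouse 496 there were 845, without NDI1 mouse 461 there were 928, and without mice 496 and 503 together there were 574. Of those 574 genes 550 were also among the 1421, and all 1418 of the 1421 genes that could still be tested kept their direction. A fit to the 10 libraries alone gave 398 calls. It has fewer samples and also leaves out the spread within the other groups, and the part of each was not tested. Of the 96 called genes chosen by a fixed naming rule, 43 lost their call when some single mouse was left out and 35 lost it without mice 496 and 503, and none turned its direction.

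**Figure D1:**
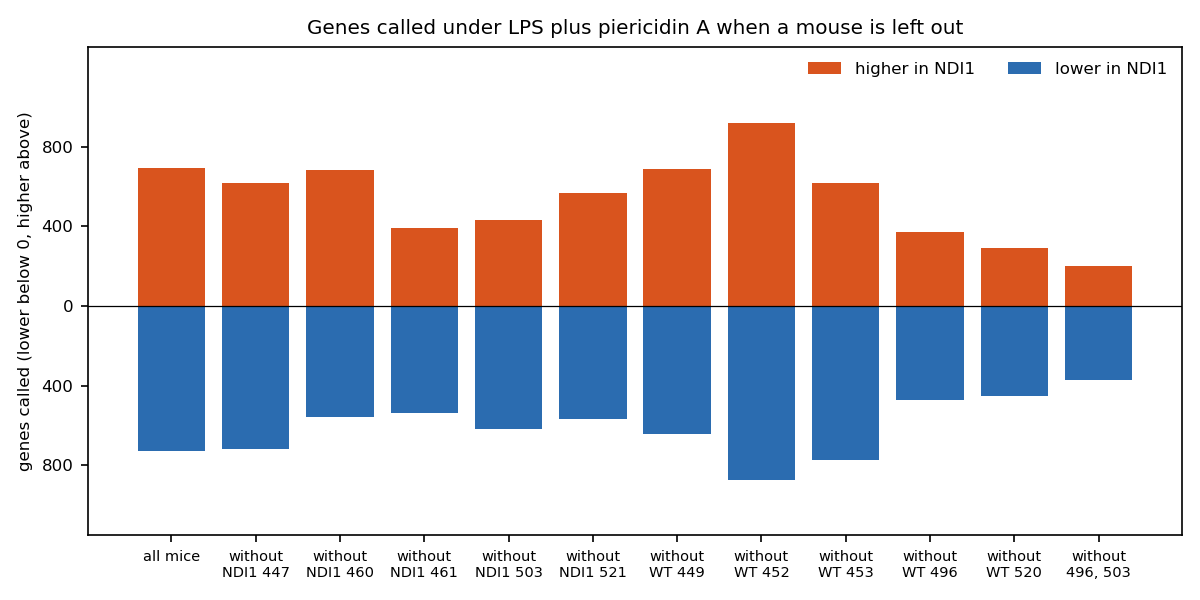
Bars show the number of genes called higher (above 0) and lower (below 0) in NDI1 under LPS plus piericidin A, with all mice and with each mouse, or mice 496 and 503 together, left out of the fit. Leaving out WT mouse 520 took the calls from 1421 to 746, and leaving out WT mouse 452 took them to 1792.

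Among called genes without overlap and with a mean log2 CPM of 1 or more, the largest fall in NDI1 was that of Ifnb1, which encodes interferon beta, the cytokine that starts the antiviral programme after LPS. Ifnb1 was at 53.2, 8.96, 14.1, 89.0 and 118 CPM in WT and at 1.44, 1.05, 0.775, 1.49 and 3.14 CPM in NDI1 (log2 fold change −5.14 ± 0.61 (SE), adjusted p = 7.31e-06). Every WT value lay above every NDI1 value, and the WT values themselves spread over a wide range, with mouse 452 lowest and mouse 520 highest. With LPS alone Ifnb1 was at 1.84 ± 1.03 CPM in WT and 1.53 ± 0.916 CPM in NDI1 (SD, n = 5 each), so the NDI1 libraries with both agents stood at the level of LPS alone and the WT libraries above it. The gene lies on the minus strand of chromosome 4, from 88522025 to 88522774 (mm10). The 250 bases before its start site are shown because they belong to this gene. They are taken from RefSeq (GRCm38.p6, chr4:88522795-88523044, minus strand), and the capitals mark AANNGAAA, a core of interferon regulatory factor sites, searched on both strands. The motif was found 3 times, starting 159, 139 and 126 bases before the start site, and 21.3% of the 32851 promoter windows hold it at least once.
Ifnb1 promoter: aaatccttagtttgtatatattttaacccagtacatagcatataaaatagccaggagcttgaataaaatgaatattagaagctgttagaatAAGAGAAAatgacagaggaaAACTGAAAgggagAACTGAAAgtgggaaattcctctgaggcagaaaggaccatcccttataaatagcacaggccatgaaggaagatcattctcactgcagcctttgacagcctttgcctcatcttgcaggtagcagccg

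A number of the other large falls were genes that LPS alone lowered and that stayed closer to the untreated level in WT with both agents. Arl4c, a small GTPase of the ARF family, was at 189.8, 54.4, 129, 325 and 257 CPM in WT and 14.4, 9.95, 15.1, 20.3 and 17.2 CPM in NDI1 (log2 fold change −3.64 ± 0.36 (SE), adjusted p = 2.13e-08). Its mean was 159.5 CPM in untreated WT, 13.4 CPM in WT with LPS and 12.5 CPM in NDI1 with LPS. Thus 4 of the 5 WT values with both agents lay above 100 CPM. From LPS alone to both agents Arl4c went up in all 5 NDI1 mice as well, by 0.09 to 0.74 in log2 CPM, against 2.81 to 4.45 in WT. Pdxk, the kinase that makes pyridoxal phosphate, was at 266, 86.6, 202, 628 and 347 CPM in WT and 41.6, 27.4, 34.3, 20.9 and 27.9 CPM in NDI1 (log2 fold change −3.33 ± 0.33 (SE), adjusted p = 2.13e-08). Its change from LPS alone was 0.10 to 0.64 in the 5 NDI1 mice and 1.70 to 5.36 in WT. It shares exon positions with another annotated gene, so its counts are less certain. Cxcr4, the receptor of the chemokine CXCL12, was at 37.7, 14.5, 39.6, 74.9 and 65.2 CPM in WT and 8.53, 3.86, 3.97, 8.66 and 5.78 CPM in NDI1 (log2 fold change −2.92 ± 0.32 (SE), adjusted p = 9.12e-08). In both genes mouse 452 gave the lowest and mouse 496 the highest WT value, and the genotypes did not overlap, which their choice required. Rassf3, a Ras association domain gene, was at 32.4, 14.5, 24.0, 39.7 and 47.0 CPM in WT and 8.53, 5.62, 6.49, 5.08 and 5.48 CPM in NDI1 (log2 fold change −2.33 ± 0.25 (SE), adjusted p = 6.51e-08), also without overlap, with mouse 520 highest. Of the 727 genes lower in NDI1, 322 (44.3%) had at least 2-fold lower mean CPM with LPS than untreated in NDI1 macrophages, against 12.8% of all tested genes, and 7.70% had at least 2-fold higher CPM. Of the 694 genes higher in NDI1, 233 (33.6%) had at least 2-fold higher CPM with LPS than untreated in NDI1 macrophages, against 16.4% of all tested genes, and 4.32% had at least 2-fold lower CPM. These shares use only libraries outside the comparison, are a description without a test, and add 0.5 CPM before each ratio.

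The further genes with the largest falls came from several roles. Htr2a, a serotonin receptor, was at 53.4, 17.1, 32.2, 77.7 and 72.6 CPM in WT and 7.65, 0.820, 4.74, 3.43 and 4.16 CPM in NDI1 (log2 fold change −3.59 ± 0.42 (SE), adjusted p = 2.91e-07). Amz1, a metallopeptidase gene that overlaps Gna12, was −2.90 on the log2 scale. Rgcc, a regulator of the cell cycle, was at −2.86. Arhgap19, a GTPase-activating protein, was at −2.83. Tnfsf14, the cytokine LIGHT, was at −2.66 with CPM of 6.97, 4.22, 4.64, 15.2 and 11.8 in WT and 2.44, 0.703, 0.968, 1.34 and 1.32 in NDI1. Gm26917, an annotated gene of no stated role, was at 199.7, 177, 185, 1060.2 and 2069.9 CPM in WT and 87.4, 123, 110.4, 149 and 122 CPM in NDI1, so that WT mice 496 and 520 stood far above the other 8 mice. Each of these 6 genes was without overlap between the genotypes, which the choice of genes required, and was still called without mice 496 and 503.

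Among genes chosen by the same rule the largest rise was that of Cebpd, a transcription factor induced early by LPS. Cebpd was at 108, 208, 113, 139.8 and 157 CPM in WT and 463, 626, 612, 541 and 652 CPM in NDI1 (log2 fold change 1.99 ± 0.31 (SE), adjusted p = 3.33e-05). Its mean with LPS alone was 440.2 ± 206 CPM in WT and 602 ± 49.6 CPM in NDI1 (SD, n = 5 each), so WT had the lower mean and the wider spread there too. From LPS alone to both agents Cebpd changed by −2.20 to −0.63 in log2 CPM in the WT mice. In the NDI1 mice this change was −0.18 to 0.01. Cebpd shares exon positions with Spidr. Saa3, an acute phase protein of activated macrophages, was at 883, 1261, 722, 738 and 329 CPM in WT and 1552, 3339, 2820.5, 2676 and 2194 CPM in NDI1 (log2 fold change 1.68 ± 0.32 (SE), adjusted p = 4.87e-04). Trib1, a pseudokinase that targets C/EBP proteins for degradation, was at 16.2, 15.7, 8.17, 27.1 and 12.1 CPM in WT and 32.2, 38.2, 54.2, 63.6 and 51.5 CPM in NDI1 (log2 fold change 1.59 ± 0.28 (SE), adjusted p = 2.60e-04). Mouse 496 was the highest WT mouse for Trib1 and still lay below the lowest NDI1 mouse. Edn1, the precursor of the vasoconstrictor endothelin 1, was at 46.0, 60.4, 18.9, 28.0 and 30.6 CPM in WT and 91.4, 71.3, 93.8, 119 and 149.7 CPM in NDI1 (log2 fold change 1.51 ± 0.25 (SE), adjusted p = 1.13e-04). Pou2f2, the B cell and macrophage factor OCT2, was at 41.2, 97.8, 23.7, 50.2 and 23.1 CPM in WT and 125, 170.4, 170.2, 197 and 109.8 CPM in NDI1 (log2 fold change 1.71 ± 0.34 (SE), adjusted p = 8.67e-04). All of these genes were without overlap, which the rule required, and were called without mice 496 and 503.

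Smaller rises without overlap were seen for Tha1, a threonine aldolase (1.40, adjusted p = 2.09e-04), Fdft1, squalene synthase (1.34, adjusted p = 0.00656), Shisa3 (1.31, adjusted p = 0.00288), the histone deacetylase Hdac9 (1.29, adjusted p = 0.00523), the VEGF receptor Flt1 (1.22, adjusted p = 0.00567), 2500002B13Rik (1.22, adjusted p = 0.00191) and Txnip (1.20, adjusted p = 0.0154), which encodes a thioredoxin-binding protein. Of these 7, Hdac9 and Txnip were not called without mice 496 and 503 (adjusted p = 0.0622 and 0.0858). Tha1, Fdft1, Shisa3, Txnip, Edn1 and Pou2f2 overlap exons of other annotated genes, so their counts are less certain.

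**Figure D2:**
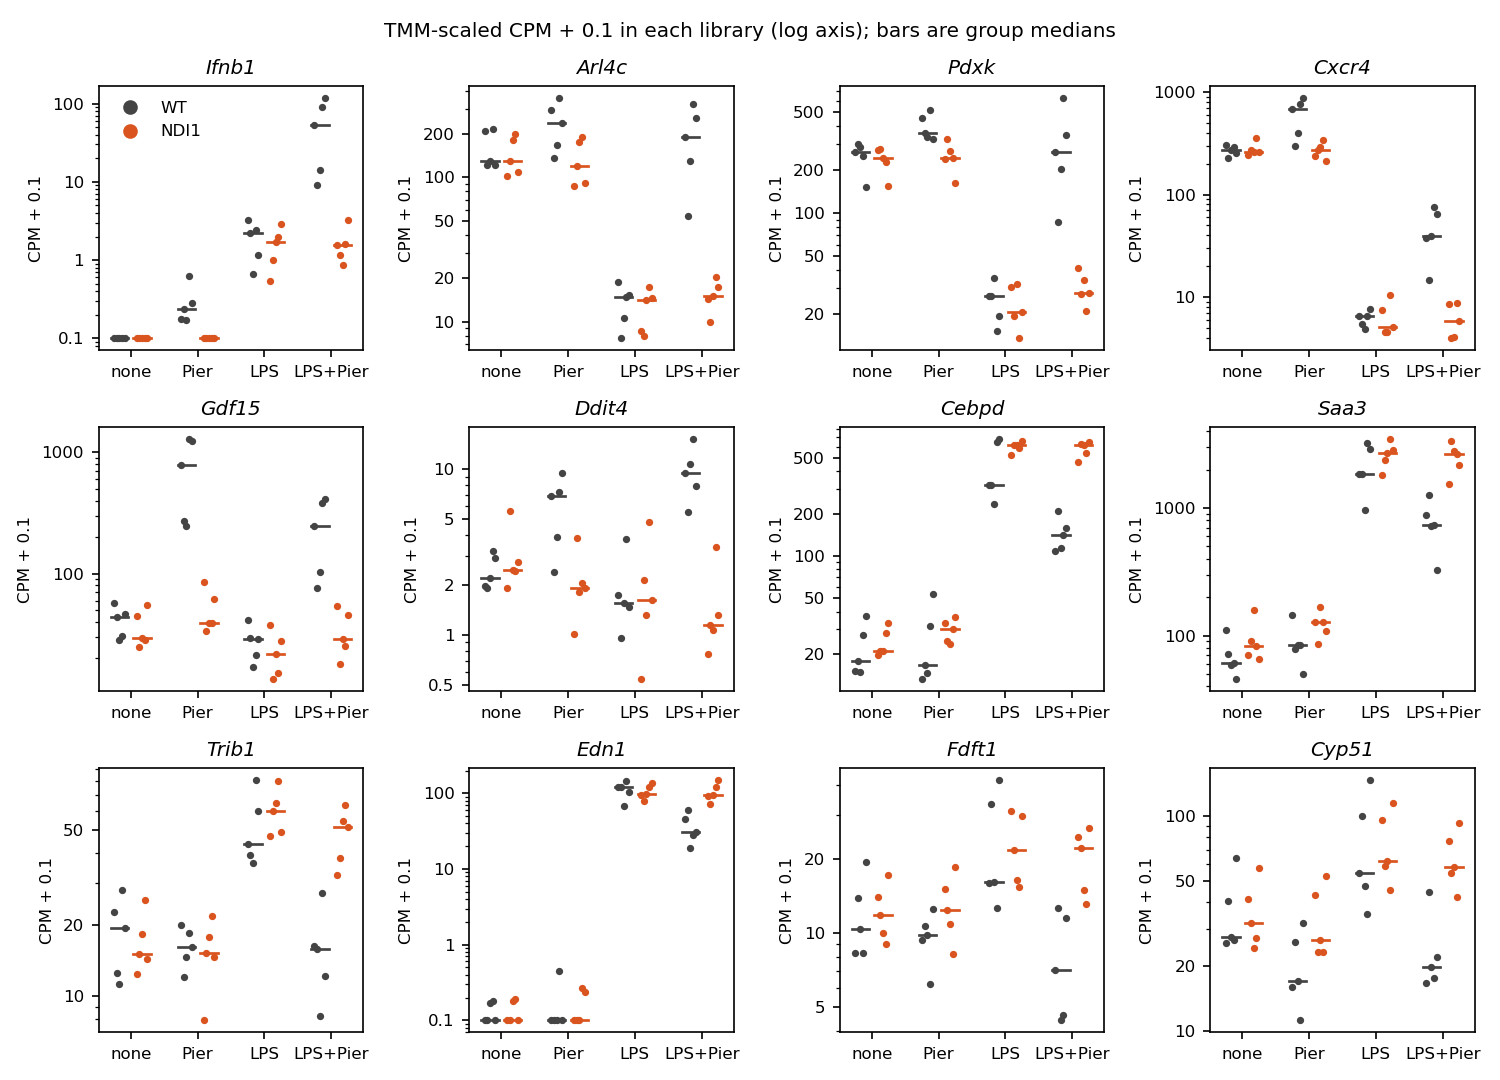
Each panel shows TMM-scaled CPM plus 0.1 on a log axis for 1 gene in all 40 libraries, with WT in grey, NDI1 in orange and short lines for the median of 5 mice. In the last column of each panel (LPS+Pier) the 6 genes from Ifnb1 to Ddit4 have the NDI1 points below the WT points, and for Cebpd, Saa3, Trib1, Edn1 and Fdft1 above them. For Cyp51 1 WT point lies among the NDI1 points.

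Gene lists were examined next, each described by how many of its tested members were called and by its median log2 fold change, which was 0.01 over all tested genes. A list's counts stand against the 5.86% of all tested genes that were higher, the 6.13% that were lower and the 12% that were called in either direction, and several lists lay near these shares. The integrated stress response is the programme in which phosphorylation of eIF2alpha slows translation and lets factors such as ATF4 and CHOP raise genes of amino acid supply and stress. Of 18 tested members 5 fell in NDI1 and none rose, with a median of −0.44. Gdf15, a secreted stress hormone, was at 245, 76.5, 103, 381 and 409 CPM in WT and 53.7, 18, 28.7, 25.1 and 45.4 CPM in NDI1 (log2 fold change −2.83 ± 0.45 (SE), adjusted p = 5.51e-05). Ddit4, an inhibitor of mTORC1, was at 9.38, 5.37, 10.6, 15.1 and 7.85 CPM in WT and 0.665, 1.05, 0.968, 3.29 and 1.22 CPM in NDI1 (log2 fold change −2.79 ± 0.47 (SE), adjusted p = 1.29e-04). Neither gene overlapped between the genotypes, which their choice among the largest falls required. In the NDI1 mice Gdf15 was higher with both agents than with LPS alone in 5 of 5 mice, by 0.41 to 0.74 in log2 CPM, against 1.38 to 4.14 in the WT mice. The same change of Ddit4 was −0.84 to 0.45 in NDI1 and 1.97 to 2.72 in WT. The others were Ppp1r15a, the phosphatase subunit GADD34 (−0.71, adjusted p = 0.0198), Sesn2 (−0.69, adjusted p = 0.0301) and the kinase Ern1, known as IRE1 (−0.69, adjusted p = 0.00372), a sensor of the unfolded protein response that this list holds. The factors of the programme were not among the calls, with Atf4 at −0.08, adjusted p = 0.874, Ddit3 at −0.32, adjusted p = 0.522 and Atf3 at −0.06, adjusted p = 0.918. Without mice 496 and 503 the 3 calls were Gdf15, Ddit4 and Ppp1r15a. The CHOP and ATF4 composite motif TGATGNAA, searched on both strands in the 250 bases before the start, was in the windows of 5 of 17 members, against 3.45% of all windows, and in none of the called members that had a window.

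Among 17 tested amino acid transporters 5 fell and none rose (median −0.31). Slc38a1, which carries glutamine, was at 267, 161, 264, 312 and 343 CPM in WT and 161, 71.2, 125, 109 and 129 CPM in NDI1 (log2 fold change −1.18 ± 0.19 (SE), adjusted p = 4.70e-05). Slc3a2, the shared heavy chain of the LAT1 and xCT exchangers, was at 1106, 674, 996, 1345 and 1183 CPM in WT and 638, 593, 641, 689.6 and 637 CPM in NDI1 (log2 fold change −0.73 ± 0.14 (SE), adjusted p = 8.02e-04), and only mouse 452 of the WT mice lay within the NDI1 range. Slc43a2, Slc38a2 and Slc36a4 also fell. Among 14 genes of serine, one-carbon, asparagine and proline synthesis 1 rose and none fell (median −0.24). Among 20 cytosolic aminoacyl-tRNA synthetases Wars alone was called, and it was higher (0.40, adjusted p = 0.0359). Of 13 eIF2alpha kinases and relay genes 1 was called, the eIF2B subunit Eif2b1 (0.33, adjusted p = 0.049). Without mice 496 and 503 Slc38a1 and Slc3a2 were the genes of these lists still called.

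Sterol synthesis showed the most rises of any list. The pathway builds cholesterol from acetyl-CoA and is turned on by the factor SREBP2 when sterols are low, while INSIG1 holds SREBP2 back. Of 25 tested members 8 rose and 1 fell, with a median of 0.72, and 7 rose without mice 496 and 503. Cyp51, which removes the 14-methyl group of lanosterol, was at 16.6, 44.1, 19.7, 17.6 and 21.9 CPM in WT and 76.8, 54.3, 58.3, 42.0 and 93.2 CPM in NDI1 (log2 fold change 1.44 ± 0.37 (SE), adjusted p = 0.00869). Here WT mouse 452, at 44.1 CPM, was the only WT value inside the NDI1 range. Fdft1 was at 6.97, 12.5, 4.32, 4.55 and 11.4 CPM in WT and 24.4, 22, 14.9, 13 and 26.7 CPM in NDI1 without overlap. Hsd17b7 (1.35), Msmo1 (1.3) and Hmgcs1 (1.09) rose as well, as did the sterol carrier Stard4 (1.08) and Fdps (1.05). Insig1 went the other way, with 197, 117, 119.6, 329 and 513 CPM in WT and 124, 72.3, 85.4, 82.3 and 143 CPM in NDI1 (log2 fold change −1.33 ± 0.42 (SE), adjusted p = 0.0347), and lost its call without mice 496 and 503 (adjusted p = 0.203). The count of rises lay between 5 and 12 when single mice were left out.

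The promoter of Hmgcs1, the enzyme that makes HMG-CoA, is shown because it is the only called sterol gene whose window held the sterol element searched for. The 250 bases before its start site are from RefSeq (GRCm38.p6, chr13:119690101-119690350, plus strand), and the capitals mark TCACNCCAC, searched on both strands, which was found 137 bases before the start site. The motif was in 1 of the 18 sterol list members with a window and in 1.05% of all 32851 windows.
Hmgcs1 promoter: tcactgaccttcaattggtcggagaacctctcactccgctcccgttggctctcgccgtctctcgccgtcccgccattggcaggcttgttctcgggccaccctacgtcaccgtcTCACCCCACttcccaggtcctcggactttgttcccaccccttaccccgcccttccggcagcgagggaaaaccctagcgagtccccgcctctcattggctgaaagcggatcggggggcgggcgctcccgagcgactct

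Of 15 tested fatty acid synthesis genes 1 rose, Acsl1, a long-chain acyl-CoA synthetase (0.79, adjusted p = 0.0185), and 2 fell, the elongase Elovl5 (−0.68, adjusted p = 1.08e-04) and the desaturase Fads1 (−0.54, adjusted p = 0.00804). Of 12 genes of cholesterol efflux under LXR 1 fell, Soat1, which esterifies cholesterol (−0.57, adjusted p = 0.00122). Acsl1 was not called without mice 496 and 503.

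Genes of the respiratory chain itself were not called. None of the 37 tested nuclear genes of complex I subunits passed the test (median 0.02, range −0.31 to 0.22), and none of 39 nuclear subunits of complexes II to V did (median 0.03). At an unadjusted p under 0.05, edgeR gave 3217 of the 11853 genes. Ndufa7 of complex I was at 65.4, 75.2, 121, 62.5 and 82.9 CPM in WT and 63.8, 115, 65.8, 60.9 and 78.9 CPM in NDI1 (log2 fold change −0.08 ± 0.16 (SE), adjusted p = 0.794), and the genotypes overlapped. The ATP synthase subunits Atp5b (−0.01, adjusted p = 0.959) and Atp5a1 (0.06, adjusted p = 0.729) were likewise not called. The 7 tested mitochondrially encoded genes all had positive values (median 0.51) without a call, for example mt-Cytb at 0.58, adjusted p = 0.17 and mt-Co1 at 0.11, adjusted p = 0.799, and without WT mouse 496 edgeR called 2 of them higher, mt-Cytb included (adjusted p = 0.0395). No member was called among 17 mitochondrial chaperones and proteases, 23 genes of the unfolded protein response of the endoplasmic reticulum, 22 genes of itaconate and the TCA cycle, or 23 NRF2 antioxidant genes. The called sensor Ern1, given above, was counted in the integrated stress response list and not among these 23 genes of the endoplasmic reticulum. Acod1, which makes itaconate, was at 0.11, adjusted p = 0.922, and Hspa5, the chaperone BiP, at 0.08, adjusted p = 0.816. Yme1l1 (0.29, adjusted p = 0.164), Hspa9 (−0.24, adjusted p = 0.4), Canx (−0.05, adjusted p = 0.834), Sod2 (0.63, adjusted p = 0.258) and Prdx1 (−0.30, adjusted p = 0.56) were other members at high levels in these lists.

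In the lists of glycolysis, HIF-1, NAD and energy transfer 8 of 76 tested genes (10.5%) were called, against 12% of all genes. Vegfa, the vascular growth factor, was at 50.9, 55.7, 71.3, 72.0 and 47.1 CPM in WT and 20.6, 26.5, 15.8, 24.6 and 21.4 CPM in NDI1 (log2 fold change −1.45 ± 0.24 (SE), adjusted p = 7.73e-05), without overlap, and it was the only member called among 16 HIF-1 factors and other targets. Of 20 glycolysis genes 1 rose and 1 fell. Pfkfb3, which makes the activator of phosphofructokinase, was at 471, 648, 331, 476 and 319 CPM in WT and 736, 739, 794, 1277 and 839 CPM in NDI1 (log2 fold change 0.97 ± 0.31 (SE), adjusted p = 0.0356), and the lactate carrier Slc16a1 was at −0.94, adjusted p = 0.0351. In the list of creatine and adenylate energy transfer, with 17 tested members, the AMPK subunits Prkaa1 (0.40, adjusted p = 0.0269) and Prkab1 (0.31, adjusted p = 0.0249) rose and Prkag2 fell (−1.03, adjusted p = 0.00545). Ckb, the brain creatine kinase, was at −0.30, adjusted p = 0.249. Of 23 genes of NAD salvage and NADH shuttles the aspartate-glutamate carrier Slc25a12 rose (0.34, adjusted p = 0.0187) and Parp1 fell (−0.48, adjusted p = 0.018). Slc25a12, Parp1, Prkaa1 and Prkab1 were not called without mice 496 and 503. Pfkfb3 lost its call without any one of 7 mice (NDI1 mice 460, 461, 503 and 521 and WT mice 449, 453 and 520), and Slc16a1 without any one of 6 (NDI1 mice 447, 460, 461 and 521 and WT mice 496 and 520).

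**Figure D3:**
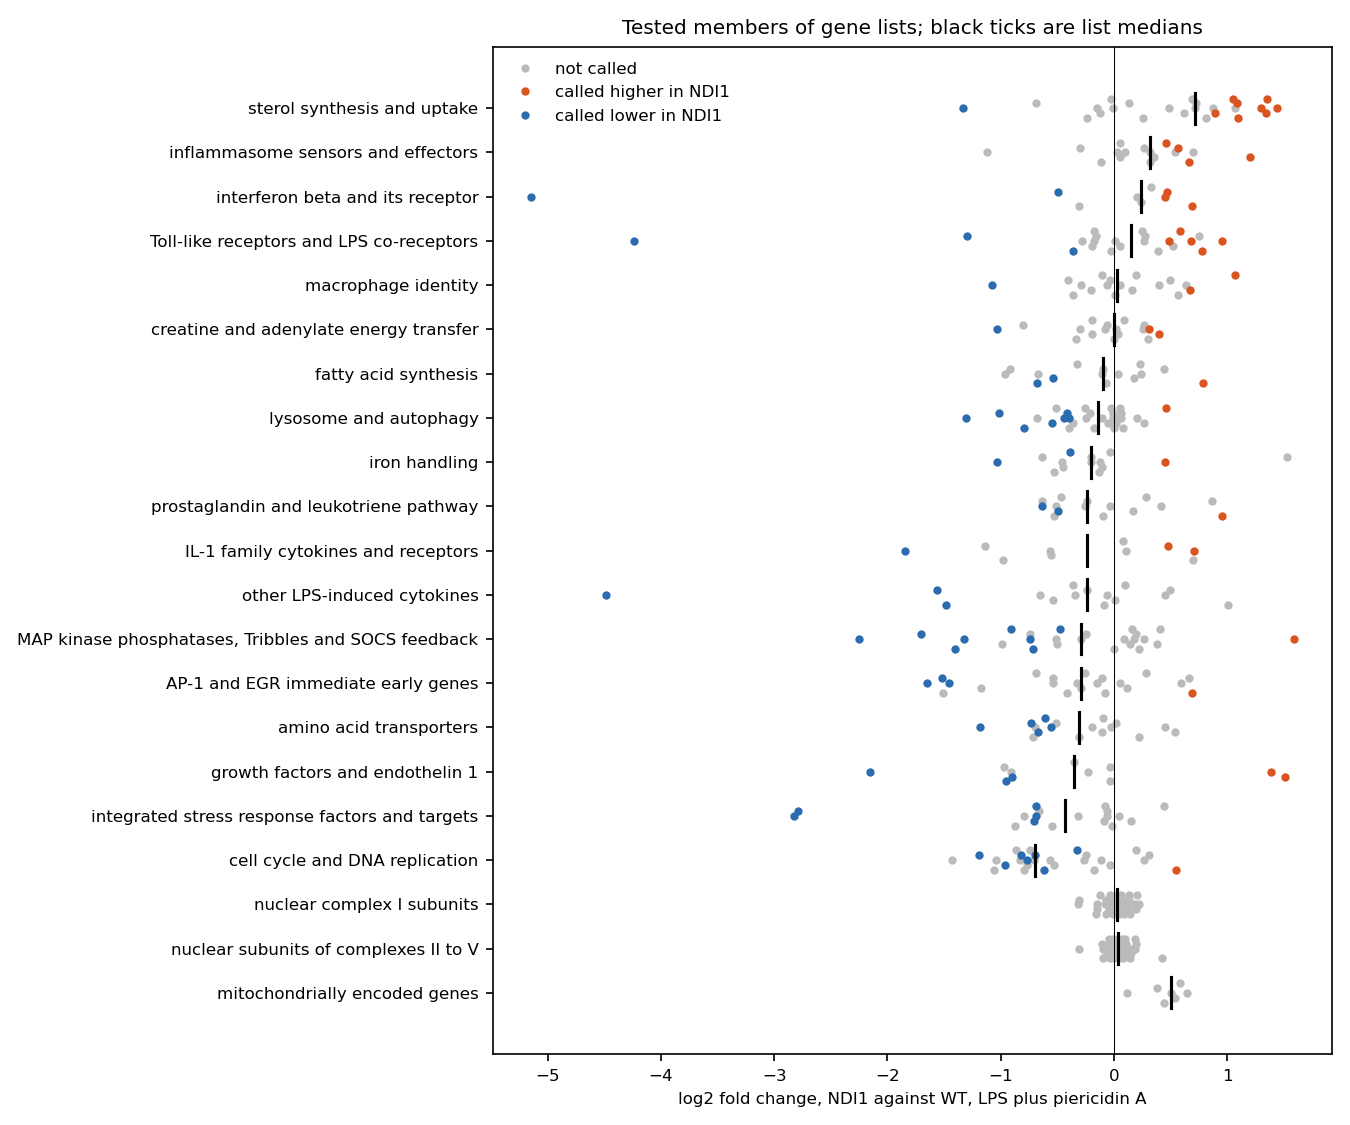
Each point is the log2 fold change (NDI1 against WT under LPS plus piericidin A) of 1 tested member of a gene list, coloured when called higher or lower, with black ticks at the list medians. Lists with at least 3 calls are ordered by median from sterol synthesis (0.72) to cell cycle (−0.70), and the bottom 3 lists are the respiratory chain, with no calls.

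Genes of the inflammasome, the complex that activates caspase-1 and releases IL-1beta, had positive values in 14 of 17 tested members, against 51.9% of all tested genes. Of these 4 rose in NDI1 and none fell (median 0.31). Casp1, the protease itself, was at 391, 339, 196, 204 and 250.2 CPM in WT and 310.0, 374, 475, 384 and 495 CPM in NDI1 (log2 fold change 0.56 ± 0.19 (SE), adjusted p = 0.0435), and the genotypes overlapped. Aim2, a sensor of DNA, was at 186, 204, 123, 102 and 132 CPM in WT and 218, 183, 274, 237 and 269.5 CPM in NDI1 (log2 fold change 0.66 ± 0.16 (SE), adjusted p = 0.00555). Casp8 (0.46, adjusted p = 0.0121) and Txnip, described above, were the other members called, and without mice 496 and 503 Aim2 was the one call. Nlrp3 was at 0.26, adjusted p = 0.655, the adaptor Pycard at 0.54, adjusted p = 0.0742 and the pore protein Gsdmd at 0.31, adjusted p = 0.137, none of them called.

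Cytokine genes did not move as a block. Il1b was at 1275, 1036, 923, 798 and 343 CPM in WT and 901, 1315, 1644, 2175 and 1070.1 CPM in NDI1 (log2 fold change 0.70 ± 0.34 (SE), adjusted p = 0.181), which is not a call. WT mouse 520 was lowest and the other 4 WT mice lay within or next to the NDI1 range. Tnf was at −0.24, adjusted p = 0.791 and Il10 at −0.06, adjusted p = 0.913. Of 10 tested IL-1 family genes Il18 rose (0.71, adjusted p = 0.0308), the receptor subunit Il1rap rose (0.48, adjusted p = 0.025) and the receptor Il1r1 fell (−1.84, adjusted p = 0.00365). Neither rise was called without NDI1 mouse 461 or 503 or WT mouse 453 or 520, and Il18 was not called without NDI1 mouse 521 or WT mouse 449 either, while the fall of Il1r1 kept its call without each single mouse. Of 15 other cytokines induced by LPS 3 fell and none rose. Osm, a cytokine of the IL-6 family, was at 17.2, 8.57, 13, 34.9 and 19.0 CPM in WT and 4.54, 2.93, 6.88, 8.36 and 8.83 CPM in NDI1 (log2 fold change −1.56 ± 0.31 (SE), adjusted p = 0.00101). Lif, of the same family, was at 5.09, 0.512, 3.04, 25.0 and 2.00 CPM in WT and 0, 0.117, 0.581, 0.299 and 0.507 CPM in NDI1, with WT mouse 496 far above the others and WT mouse 452 inside the NDI1 range. Tnfsf15 fell as well (−1.49, adjusted p = 0.00495). Of 25 chemokines and their receptors only the receptors Cxcr4, given above, and Ccrl2 fell. Ccrl2 was at 2004, 1285, 1741, 2722 and 2603 CPM in WT and 1072, 843, 905, 1098 and 1010.0 CPM in NDI1 (log2 fold change −1.07 ± 0.34 (SE), adjusted p = 0.0325) without overlap, and it was not called without mice 496 and 503 (adjusted p = 0.111).

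In the list of interferon beta and its receptor, with 9 tested members, Ifnb1 and Tmem173, the adaptor STING (−0.50, adjusted p = 0.049), fell, while the receptor chain Ifnar1 (0.68, adjusted p = 0.00953), the receptor kinase Tyk2 (0.47, adjusted p = 0.0408) and Irf3 (0.45, adjusted p = 0.0236) rose. Without mice 496 and 503 the calls were Ifnb1 and Ifnar1. Of 43 tested interferon-stimulated genes 31 had positive values, against 51.9% of all tested genes, with a median of 0.31. The 2 that were called, both higher, are 4.65% of the list, below the 12% of all tested genes. Ifi35, an interferon-induced protein, was at 190.5, 214, 183, 164 and 134 CPM in WT and 186, 317, 245, 282 and 279 CPM in NDI1 (log2 fold change 0.56 ± 0.17 (SE), adjusted p = 0.0273), and the genotypes overlapped. Ifi35 was not called without mice 496 and 503. The interferon element GAAANNGAA, searched on both strands, was in the windows of 17 of the 31 members that had one, against 7.13% of all windows.

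MAP kinase phosphatases of the DUSP family switch off ERK, JNK and p38, and SOCS proteins hold back cytokine receptors. Of 25 tested members of this feedback list 8 fell and Trib1 rose, against 6.13% lower and 5.86% higher of all tested genes, with 6 falls without mice 496 and 503. The falls were 4 to 9 when single mice were left out, with 4 without NDI1 mouse 460 or WT mouse 496 and 5 without NDI1 mouse 461 or WT mouse 520. Dusp8 was at 3.62, 3.45, 3.68, 10.1 and 9.71 CPM in WT and 0.997, 1.41, 1.36, 1.19 and 1.42 CPM in NDI1 (log2 fold change −2.25 ± 0.38 (SE), adjusted p = 1.19e-04). Dusp5, the nuclear phosphatase of ERK, was at 85.1, 46.4, 71.8, 79.4 and 51.5 CPM in WT and 19.7, 21.0, 15.4, 32.3 and 15.0 CPM in NDI1 (log2 fold change −1.70 ± 0.27 (SE), adjusted p = 5.51e-05). Both were without overlap, and both share exon positions with another annotated gene. The mRNA decay factors Zfp36l2 (−1.40, adjusted p = 1.56e-05) and Zfp36l1 (−1.33, adjusted p = 0.0195) fell together with Socs1, Cish, Dusp7 and Dusp3, whose values lay between −0.91 and −0.48.

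Among 21 AP-1 and EGR immediate early genes, the transcription factors that respond first to kinase signalling, 3 fell and 1 rose, with 2 to 5 falls and 0 to 2 rises when single mice were left out (5 falls without NDI1 mouse 503, no rise without WT mouse 520, and 2 rises without NDI1 mouse 447 or WT mouse 453 or 496). These were Nr4a3 (−1.65, adjusted p = 0.0138), Fosb (−1.52, adjusted p = 0.0121) and Egr1 (−1.46, adjusted p = 0.0105), and Ier2 in the other direction (0.69, adjusted p = 0.0121). Of 11 tested growth factors Hbegf, a ligand of the EGF receptor, fell from 13, 13.2, 12.2, 44.9 and 29.4 CPM in WT to 4.32, 1.87, 2.81, 7.91 and 8.52 CPM in NDI1 (log2 fold change −2.16 ± 0.53 (SE), adjusted p = 0.00687). Bmp2 (−0.95, adjusted p = 0.0426) and Inhba (−0.90, adjusted p = 0.0237) fell too, while Edn1 and Pdgfb (1.39, adjusted p = 0.0136) rose. The falls of this list numbered 1 to 4 without single mice, with 1 without NDI1 mouse 461, 503 or 521, and the rises 1 without NDI1 mouse 461 or WT mouse 520. Among 16 NF-kB subunits and inhibitors the kinase Ikbkb (0.35, adjusted p = 0.0322) and the inhibitor Tnip3 (0.85, adjusted p = 0.0344) rose, and neither was called without mice 496 and 503, nor were Fosb, Ier2 and Bmp2.

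Of 18 genes of macrophage identity 3 were called, which is 16.7% against 12% of all tested genes. Spi1, which encodes PU.1, the main factor of the lineage, was at 695, 911, 660.3, 611 and 531 CPM in WT and 965, 1229, 1056, 1192 and 971 CPM in NDI1 (log2 fold change 0.67 ± 0.14 (SE), adjusted p = 0.00113) without overlap. Maf was at 603, 831, 271, 361 and 267 CPM in WT and 815, 1069.9, 1096, 1042 and 865 CPM in NDI1 (log2 fold change 1.07 ± 0.23 (SE), adjusted p = 0.00185), and WT mouse 452 lay inside the NDI1 range. Irf8 went down, at 962, 556, 411, 1726 and 999.7 CPM in WT and 321, 279.9, 477, 613 and 516 CPM in NDI1 (log2 fold change −1.08 ± 0.28 (SE), adjusted p = 0.00933). These were the calls, and all 3 held without mice 496 and 503. Of 22 Toll-like receptor genes and co-receptors 5 rose and 3 fell. The adaptor Tirap (0.78, adjusted p = 0.00493) and the brake Irak3 (0.95, adjusted p = 0.0242) led the rises, with Tlr8, Tlr6 and Myd88 between 0.49 and 0.68. Tlr9, a DNA sensor, fell (−1.30, adjusted p = 0.0359), Traf6 fell (−0.36, adjusted p = 0.0368), and Tlr5 was at 1.34, 0.768, 0.320, 1.77 and 1.06 CPM in WT and 0.111, 0, 0, 0.149 and 0 CPM in NDI1, a level of 0 or 1 counts in each NDI1 library. Of 15 genes of MHC class I presentation 2 were called, a share near the 12% of all tested genes, and both rose, the peptide transporter Tap2 (0.54, adjusted p = 0.00901) and the immunoproteasome subunit Psmb10 (0.64, adjusted p = 0.0104), with a list median of 0.37. Without mice 496 and 503 Tirap, Tlr9 and Tlr5 were the Toll-like receptor genes and co-receptors still called, and Tap2 and Psmb10 were not called. Leaving out single mice gave 1 to 6 rises among the 22, with 1 without WT mouse 520, 2 without NDI1 mouse 503 and 3 without WT mouse 453 or 496, and 1 to 3 falls, with 1 without WT mouse 449, 496 or 520 or NDI1 mouse 460 or 521. None of 14 MHC class II and costimulation genes was called (median −0.39). Without mice 496 and 503 the class II chains H2-Aa, H2-Ab1 and H2-Eb1 were called lower, and with all mice their values were −0.94, adjusted p = 0.284 for H2-Aa, −0.85, adjusted p = 0.275 for H2-Ab1 and −0.88, adjusted p = 0.336 for H2-Eb1. Markers of B cells and dendritic cells, cells known for class II, were highest in WT mouse 496 (given above), and their part in this list was not tested. The abundant members Cd40 (0.33, adjusted p = 0.705) and Cd274, which encodes PD-L1 (−0.38, adjusted p = 0.195), were not called.

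Of 27 tested genes of the cell cycle and DNA replication 7 fell and 1 rose, and the list had the lowest median, −0.70. Cdt1, which licenses replication origins, was at 74.3, 63.6, 78.8, 132 and 107 CPM in WT and 51.7, 34.1, 32.3, 51.7 and 29.4 CPM in NDI1 (log2 fold change −1.19 ± 0.19 (SE), adjusted p = 7.13e-05) without overlap. Mcm7, Mki67, Pcna, Mcm4, E2f1 and Cdk4 fell by less, and the cell cycle inhibitor Cdkn1b rose (0.55, adjusted p = 0.0268). Without mice 496 and 503, 2 of the falls were called, those of Cdt1 and Mcm7, and the neutrophil and stromal markers given above were highest in WT mouse 496, and their part in this list was not tested. Of 30 lysosome and autophagy genes 7 fell, led by Rragd, a Rag GTPase of the lysosome (−1.31, adjusted p = 0.00362), and Fnip2, its folliculin partner (−1.01, adjusted p = 0.0018), while the factor Tfe3 rose (0.45, adjusted p = 0.0158) and its relative Tfeb fell (−0.79, adjusted p = 0.0228). Of 14 iron handling genes the exporter Slc40a1 fell (−1.03, adjusted p = 0.00523), the ferritin light chain Ftl1 fell (−0.39, adjusted p = 0.0257) and Ireb2 rose (0.45, adjusted p = 0.0479). Rragd and Fnip2 were the lysosome and autophagy genes still called without mice 496 and 503, so that Tfeb, Tfe3 and 4 other falls were not. Without single mice 4 to 9 genes of that list fell, with 4 without WT mouse 496 or 520. Cdkn1b, Ftl1 and Ireb2 were not called without mice 496 and 503.

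Of 12 genes of arginine and nitric oxide metabolism the polyamine genes Odc1, ornithine decarboxylase (−1.0, adjusted p = 0.00159), and Sat1 (−0.68, adjusted p = 0.037) fell. In the prostaglandin and leukotriene pathway, with 15 tested members, Pla2g4a, the phospholipase that frees arachidonic acid, rose (0.96, adjusted p = 0.00987), and Hpgds (−0.63, adjusted p = 0.0337) and Lta4h (−0.49, adjusted p = 0.0154) fell. Of 14 purinergic and adenosine genes Entpd1, known as CD39, fell (−0.48, adjusted p = 0.0282). Of 15 p53 and apoptosis genes Mcl1, a survival factor, rose (0.38, adjusted p = 0.0103). Of 18 cytosolic heat shock genes the HSP90 cochaperone Ahsa1 fell (−0.55, adjusted p = 0.0249). Odc1 was the only one of these 8 genes called without mice 496 and 503. Over the 41 lists together 113 of 777 tested genes were called (14.5%), against 12% of all tested genes, and 60 were without mice 496 and 503.

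Many of these calls rested on all 10 libraries. Of 96 called genes that the naming rule holds, 43 lost their call when some single mouse was left out, from 3 without WT mouse 452 to 37 without WT mouse 520. Eif2b1, Wars, Hsd17b7, Insig1, Ahsa1, Pfkfb3, Slc16a1, Prkab1, Prkaa1, Il18, Ccrl2, Ifi35, Tyk2, Tmem173, Ikbkb, Tnip3, Bmp2, Sat1, Hpgds, Lta4h, Ireb2, Ftl1, Tlr9, Cdkn1b and Casp1 did so for any one of 5 to 8 mice. Txnip, Acsl1, Fads1, Slc25a12, Parp1, Il1rap, Ifnar1, Ier2, Nr4a3, Pdgfb, Tap2, Psmb10, Irak3, Tfe3, Irf8 and Entpd1 did so for 1 to 4 mice. In the larger lists the integrated stress response had 3 falls without NDI1 mouse 460 or 521 or WT mouse 449 or 520. The amino acid transporters had 3 falls without NDI1 mouse 460 or WT mouse 496 or 520, the cell cycle list had 3 without WT mouse 496 or 520, and the inflammasome list had 1 rise without WT mouse 496 and 2 without WT mouse 520. Sterol synthesis had 5 rises without NDI1 mouse 521 or WT mouse 449. Where a list had 3 calls or fewer in a direction, leaving out 1 mouse changed that count by at most 3, which could be all of it. Without some single mouse the rises went to 0 from 3 in the interferon beta list. They went to 0 from 2 in the NF-kB list and in that of creatine and adenylate energy transfer, among others.

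The genotype difference was next set beside that under piericidin A alone, in other libraries of the same mice. There 924 genes (7.8%) were called, and 309 were called in both settings, which is 21.7% of the list with LPS and 33.4% of the list without, 296 of them in the same direction. The difference between the 2 genotype differences was itself tested and was called for 231 genes (1.95%), 90 positive and 141 negative. A positive value means that NDI1 minus WT was higher with LPS plus piericidin A than with piericidin A alone. Of the 90 positive genes 66 were called lower in NDI1 with piericidin A alone, and 62 of these were not called with both agents. Of the 141 negative genes 113 were called lower in NDI1 with both agents, and 99 of these were not called with piericidin A alone. With the mouse as a replicate block the difference was called for 1216 genes (10.3%), and without mice 496 and 503 for 79.

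Among genes with a mean log2 CPM of 1 or more, the inducible heat shock genes gave the largest positive values of this difference. Hspa1a, which encodes the inducible HSP70, was at 10.2, 7.29, 11.5, 14.2 and 4.52 CPM in WT and 6.87, 11.0, 12.7, 10.0 and 7.0 CPM in NDI1 with both agents, and the groups overlapped. With piericidin A alone it was at 88.0 ± 43.3 CPM in WT and 2.32 ± 1.01 CPM in NDI1 (SD, n = 5 each), and the difference was 5.24 ± 0.48 (SE), adjusted p = 5.73e-09. Its near-identical neighbour Hspa1b, whose reads can be shared with it, gave 4.84 ± 0.47 (SE), adjusted p = 1.25e-08. Ccl3, a chemokine for monocytes and T cells, was at 1808, 1275, 702, 2102 and 2072 CPM in WT and 1489.8, 1047, 1823, 1964 and 1735 CPM in NDI1 with both agents, against 259 ± 228 CPM in WT and 15.7 ± 5.56 CPM in NDI1 with piericidin A alone (difference 4.06 ± 0.57 (SE), adjusted p = 5.47e-05). Thus the WT excess of these genes under piericidin A alone was not seen in the LPS-treated cells. Ccl4 (4.12 ± 0.67 (SE), adjusted p = 2.87e-04), the vasodilator peptide Adm (4.67 ± 0.88 (SE), adjusted p = 0.00181) and Clic5 (3.45 ± 0.58 (SE), adjusted p = 4.66e-04) were the other positive genes with the largest values. Pfkfb3 changed sides, from −1.0 (adjusted p = 0.0399) with piericidin A alone to 0.97 with both (difference 1.97 ± 0.44 (SE), adjusted p = 0.0105).

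Above the same limit on mean log2 CPM, 5 of the 6 genes with the largest negative values were called lower in NDI1 with both agents and not called with piericidin A alone. Arl4c went from −0.84 (adjusted p = 0.105) with piericidin A alone to −3.64 with both (difference −2.79 ± 0.47 (SE), adjusted p = 4.66e-04). Pdxk went from −0.70 (adjusted p = 0.16) to −3.33 (difference −2.63 ± 0.44 (SE), adjusted p = 3.84e-04), and Rassf3 from 0.01 (adjusted p = 0.992) to −2.33 (difference −2.34 ± 0.33 (SE), adjusted p = 5.47e-05). Arhgap19 (−2.71 ± 0.49 (SE), adjusted p = 0.00121) and the imprinted factor Plagl1 (−2.70 ± 0.73 (SE), adjusted p = 0.0403) gave similar values. Enc1, an actin-binding protein, was higher in NDI1 with piericidin A alone, at 1.03 (adjusted p = 0.0276), and lower with both, at −1.37 (difference −2.40 ± 0.45 (SE), adjusted p = 0.00169). Without the block, Cebpd and Trib1 were the 2 among the 12 largest rises whose difference was called, with 1.79 ± 0.43 (SE), adjusted p = 0.0176 for Cebpd and 1.66 ± 0.40 (SE), adjusted p = 0.0176 for Trib1. With the mouse as a replicate block 5 of the 12 were called, since Fdft1, Tha1 (edgeR adjusted p = 0.0236) and Saa3 (edgeR adjusted p = 0.0394) were called as well.

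For the stress and sterol lists the number of calls differed between the settings, and the test of the difference was passed by 1 member of each without the mouse as a replicate block and by 8 and 6 members with it, against 1.95% and 10.3% of all tested genes. In the integrated stress response list 10 of 18 members fell with piericidin A alone (median −0.91) and 5 with both (median −0.44), and without the block the difference was called for Cebpb alone (1.18 ± 0.30 (SE), adjusted p = 0.0253). With the block Ddit4, Atf4, Ddit3 and Atf3 were among the 8 called. Gdf15 was at −3.88 (adjusted p = 3.25e-07) with piericidin A alone and −2.83 with both, and the difference was not called (1.06 ± 0.60 (SE), adjusted p = 0.44). In the sterol list no member rose with piericidin A alone (median 0.35) and 8 rose with both (median 0.72), and without the block the difference was called for 1 member, with Cyp51 at 0.71 ± 0.51 (SE), adjusted p = 0.583 and Fdft1 at 0.91 ± 0.45 (SE), adjusted p = 0.364. With the block edgeR gave an adjusted p of 0.0319 for Cyp51, 0.000954 for Fdft1 and 0.0309 for Insig1. For the other lists, the count of members whose difference was called was 5 of 25 chemokines and receptors, 5 of 25 feedback genes and at most 2 in each of the rest. With the block these counts were 7 of 25, 14 of 25 and at most 7.

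**Figure D4:**
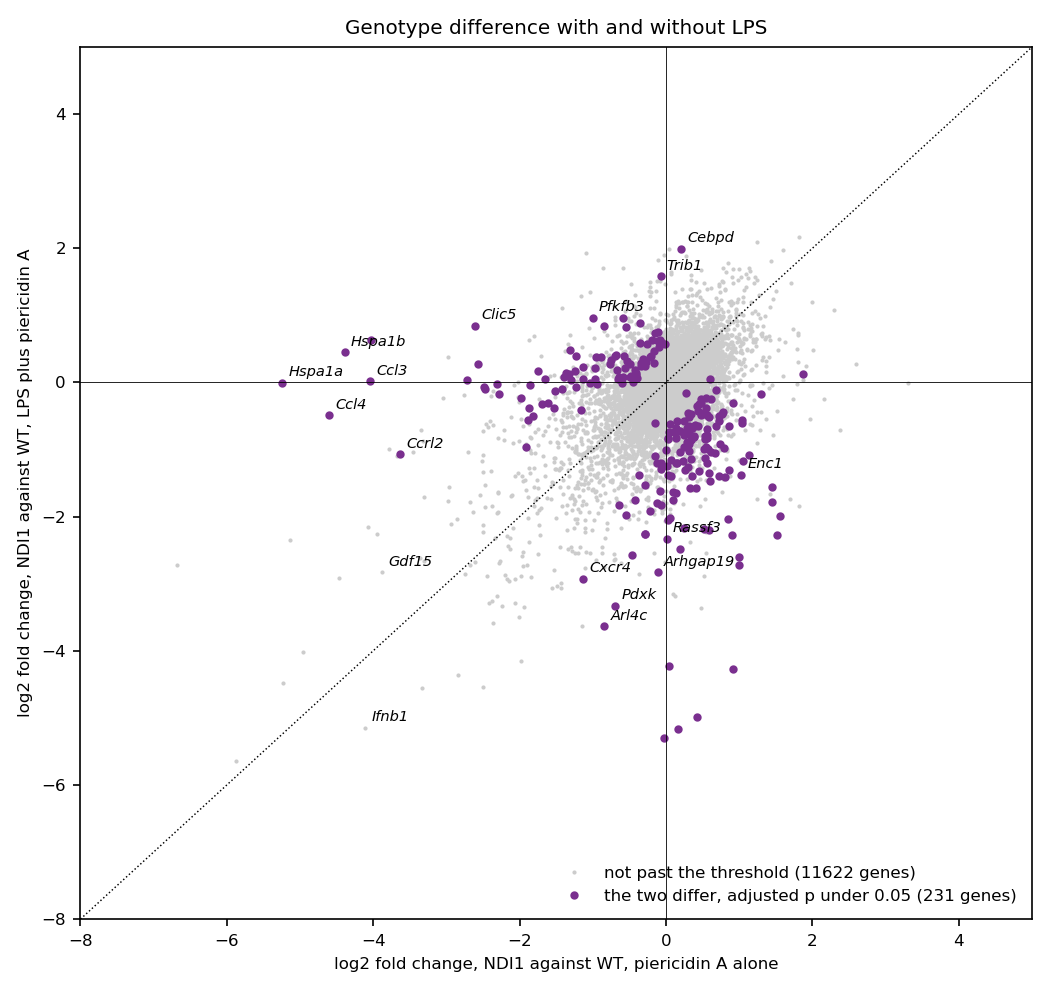
Each point is 1 of the 11853 tested genes, placed by its log2 fold change (NDI1 against WT) with piericidin A alone on the x axis and with LPS plus piericidin A on the y axis, and the dotted line marks equal values. The 231 genes whose difference passed the test are purple, with Hspa1a, Hspa1b, Ccl3 and Ccl4 near 0 on the y axis and Arl4c, Pdxk and Rassf3 well below 0.

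With LPS alone and without treatment edgeR called no gene between the genotypes (141 and 39 genes at an unadjusted p under 0.05). Over all 11853 tested genes the median size of the log2 fold change was 0.08 with LPS alone and 0.24 with both agents, given as a description without a test. The difference between the genotype differences with and without piericidin A in LPS-treated cells was called for 116 genes (0.979%), all among the 1421, and for 783 of the 1421 when the mouse was kept as a replicate block. DESeq2 gave 231 such genes. Ifnb1, Arl4c, Pdxk, Cxcr4, Rassf3, Htr2a, Gdf15, Ddit4, Osm, Dusp8, Vegfa, Cdt1, Edn1 and Tha1 were among the genes called for this difference without the block.

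The 2 LPS-treated libraries of each mouse, with and without piericidin A, allow the contrast to be seen within animals. The median log2 CPM change with piericidin A over the integrated stress response list was 0.19 to 0.47 in WT and −0.04 to 0.06 in NDI1. For sterol synthesis it was −1.49 to −0.50 in WT and −0.23 to −0.13 in NDI1, and WT mouse 520 had the lowest value. For the feedback genes it was 0.18 to 0.44 in WT and −0.11 to 0.10 in NDI1, and for the immediate early genes 0.20 to 0.33 in WT and −0.17 to 0.05 in NDI1. MHC class II and costimulation gave 0.27 to 0.69 in WT and −0.05 to 0.11 in NDI1. No member of that list was called between the genotypes. With the mouse as a replicate block the difference from LPS alone was called for 5 of 18 stress response, 13 of 25 sterol, 9 of 25 feedback, 3 of 21 immediate early and 4 of 14 class II genes, against 9.51% of all tested genes, and for 0 to 8 members of each other list. In these 5 lists the values of the WT mice and the NDI1 mice did not overlap, and they are 5 of the 11 lists, of 41, for which this held. The others were those of serine and one-carbon synthesis, the inflammasome, chemokines and receptors, interferon-stimulated genes, arginine and nitric oxide metabolism, and MHC class I presentation. In the lists of complex I subunits (−0.10 to 0.33 in WT and −0.07 to 0.52 in NDI1), cell cycle genes (−0.00 to 0.77 in WT and −0.42 to 0.15 in NDI1) and amino acid transporters (0.01 to 0.53 in WT and −0.28 to 0.12 in NDI1) they did. Over all tested genes the median was −0.05 to −0.02 in WT and −0.06 to 0.02 in NDI1. In the NDI1 mice edgeR called no gene between LPS plus piericidin A and LPS alone (127 genes at an unadjusted p under 0.05), and it called none with the mouse as a replicate block either (334 genes at an unadjusted p under 0.05), a fit added after the data were seen.

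**Figure D5:**
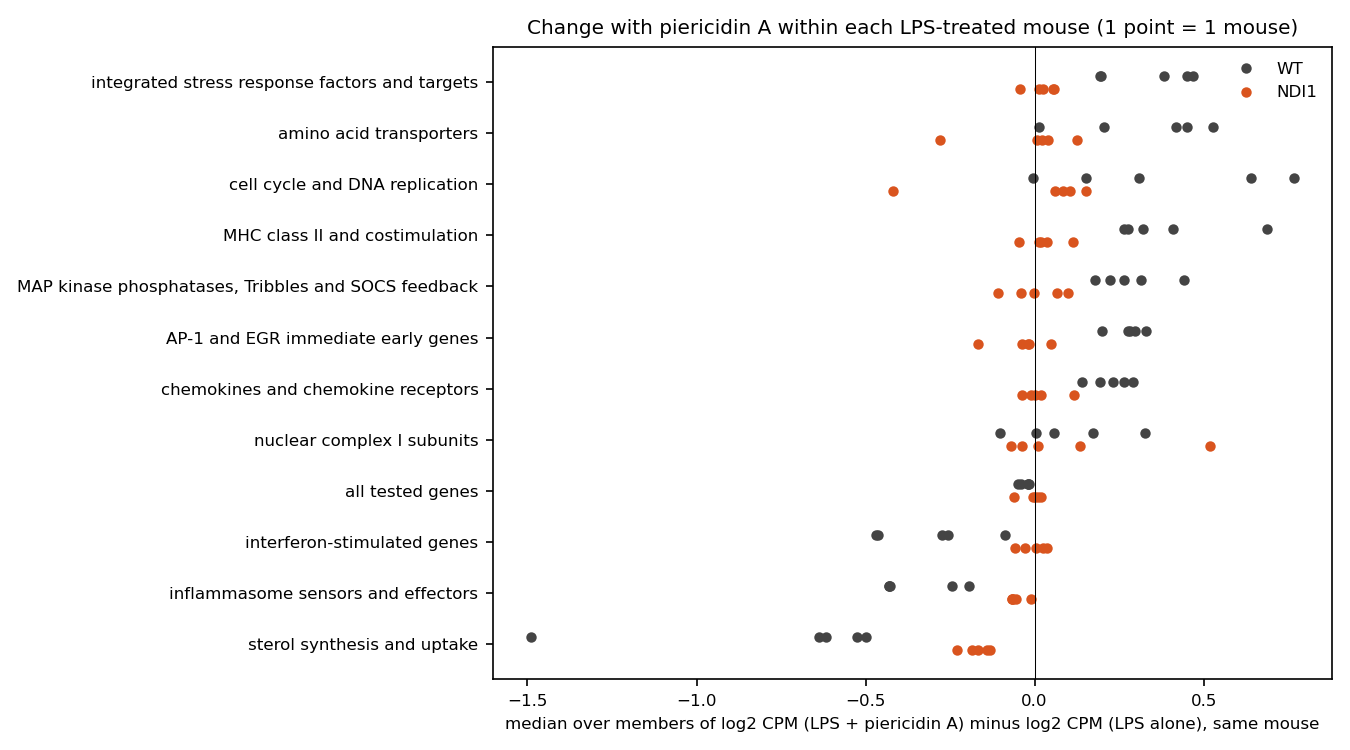
Each point is 1 mouse, placed at the median over the members of a gene list of log2 CPM with LPS plus piericidin A minus log2 CPM with LPS alone, for WT (grey) and NDI1 (orange). NDI1 mice lie near 0 in most lists, while WT mice lie below 0 for sterol synthesis, from −1.49 to −0.50, and above 0 for the integrated stress response, from 0.19 to 0.47.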

How the data were processed

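Poly(A) RNA-seq of BMDMs was deposited as 1 table of counts per gene. For these counts the authors used bcl2fastq for demultiplexing, Trimmomatic for trimming, STAR with the mm10 genome for alignment and HTSeq for reads in exons. Neither the annotation release nor the strand setting was given in the sources used here, so overlapping genes are less certain, which are 35.3% of the called and 37.6% of all tested genes. Besides gene coordinates and length, 1 column of reads assigned to no library was not used. Of 43430 rows 42462 were matched to a symbol. Groups came from the labels, and columns were tied to samples by mouse number and treatment letter. Totals were 6950748 to 13552070 counts per library with LPS plus piericidin A.

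Genes were filtered with edgeR (4.0.16, R 4.3.3), scaled by TMM factors and fitted with the quasi-likelihood model over the 8 groups of all 40 libraries, with Benjamini-Hochberg adjustment over 11853 genes and two-sided tests. CPM values given per library are scaled by TMM factors, marker sums are not. The steps were tested on simulated data. Those libraries were drawn independently of each other, so that test cannot show how the fit behaves when libraries share a mouse. Each library is 1 mouse, and separate libraries of a group differed by more than counting noise. The main fit has no term for the mouse, so its p-values treat libraries of the same mouse as independent. These p-values rest on a spread pooled over the 8 groups, not on that between the mice under LPS plus piericidin A alone. The fit to the libraries of the comparison alone uses only their own spread, and it gave fewer calls. Libraries of the same mouse deviated together from their group means, with a mean correlation of 0.453 over 60 pairs (range 0.0995 to 0.769) against -0.107 over 240 pairs of different mice, and the mouse number in the labels gives the pairing, so fits with the mouse as a replicate block were run as well. DESeq2 (1.42.0), limma (3.58.1), other filters, scaling and depth, a sex term and leaving out mice were the alternatives.

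Genes described by name under the fixed rule were the 12 largest rises and falls without overlap whose mean log2 CPM reached 1, the 2 called members of each list with the largest rise and fall (with no call, the 2 highest), the 6 largest positive and negative differences from piericidin A alone above the same mean log2 CPM, and genes the study names. Other list members, and the Ifnb1 promoter and its motif, were chosen after their values were seen. A few genes that the rule or the lists hold are not reported here by name, and the counts include them. The members and lists were chosen with earlier results of these data known.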

Additional observations from a re-analysis of the deposited data

Results flagged for a closer look

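Among the genes described by name, 242 groups of 5 values were checked on the scale of log2 CPM. In 5 of them, 1 mouse had a gap to its nearest neighbour that took up too much of the group's range. The bound was Dixon's 95% limit for 5 values, and chance flags about 1 in 20 groups. In WT, mouse 449 was the highest for Flt1 (gap 0.730 of the range) and for Cd40 (0.717), and mouse 452 was the highest for Cyp51 (0.716). In NDI1, mouse 460 was the lowest for Arhgap19 (0.912) and mouse 503 the highest for Pfkfb3 (0.761). The genotype difference with LPS plus piericidin A differed from that with LPS alone for 116 genes and from that with piericidin A alone for 231 genes, by edgeR's test of the difference itself.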

How the results depend on the processing

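The 1421 calls became 398 in a fit to the 10 libraries alone, 355 with a log2 fold change of at least 1, 574 without mice 496 and 503, and 746 to 1792 when single mice were left out. They stayed within 1.5 times under DESeq2 (1623), RLE factors (1445), no filter (1088), a filter of 10 counts (1297), thinning (1203), a sex term (1540), limma without a block (1232) and limma with the mouse as a random replicate block (1234). The 116 genes whose difference from LPS alone was called became 231 under DESeq2, 72 without a filter, 1127 with the mouse as a replicate block, 18 without mice 496 and 503 and 27 to 255 without single mice. For the 231 genes of the difference from piericidin A alone these were 372 under DESeq2, 1216 with the replicate block, 79 without mice 496 and 503 and 86 to 263 without single mice. The 113 called list members became 44 in the fit to 10 libraries, 41 with a log2 fold change of at least 1, 60 without mice 496 and 503 and 57 to 129 without single mice. The lower counts without mice came with fewer samples, and which part other causes had was not tested. The share of variance between genotypes was 21.0% over the 500 most variable genes (exact permutation test, p = 0.0556) and 21.1% to 26.9% without single mice. Of 96 named and called genes none reversed in the 20 refits in which they were tested, and 44 kept their call in each refit that held them, of which 36 were in every refit and 8 were not. Of these 44, 40 also had a log2 fold change of at least 1 in size, as 52 of the 96 did. Of the 96, 43 lost their call without some single mouse, 43 in the fit to 10 libraries and none under DESeq2.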
